A study of Mus musculus with 8 samples.

Results

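DMRT6 peaks at promoters that were silent in the postnatal day 8 (P8) testis numbered 176 of the 14862 peaks in the series and belonged to 166 genes. A peak was kept when its middle lay within 1 kb of a gene's 5' end and the nearest such end belonged to a gene with a wild-type mean below 0 on the log2 CPM scale, that is, below 1 CPM (reads scaled to the library total). Some 5' ends form pairs that point away from each other, with the minus-strand end at the lower coordinate. Peaks within 1 kb of both ends of a pair were dropped, which removed 358 of the 2724 peaks within 1 kb. Of the 2366 peaks that remained, 176 (7.44%, exact 95% Clopper-Pearson interval 6.41 to 8.57%) were at silent genes and 2190, at 2000 genes, were at expressed ones. All such intervals cover counting error only. The members were chosen by their wild-type levels and by the peak positions, so their low values in wild type and the closeness of the peaks are not results.

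The study mapped DMRT6 in adult mouse testis with 1 chromatin immunoprecipitation (ChIP) library and 1 input library, both from wild-type animals labelled C57BL/6, Mixed, using purified rabbit polyclonal antibodies to the C-terminal part of the protein. It also sequenced RNA from P8 testis of C57BL/6 mice, with 3 wild-type and 3 Dmrt6 Null libraries that the submitters call biological replicates. The sources used here give neither the type of null allele nor whether testes were pooled. Binding was therefore measured in adults and expression in young animals, and no adult RNA was analysed here.

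DMRT6, the product of Dmrtb1, is a transcription factor with a DM domain, a zinc-binding fold that reads a short element with the core ACATTGT. In the testis it is made in differentiating spermatogonia, the germ cells that are about to leave mitosis and enter meiosis. At P8 the tubules hold Sertoli cells and spermatogonia but no spermatids.

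The 6 RNA libraries held 23.8 to 29.0 M reads in the table, in which 3 reads correspond to 0.103 to 0.126 CPM. Sertoli, Leydig, spermatogonial and macrophage markers were present in all 6, and of the late spermatid markers in the table Prm1 and Tnp2 had 1 to 5 reads and Tnp1 had 10 to 20. For Dmrtb1, the targeted gene, the wild-type libraries gave 194, 510 and 254 reads and the null libraries 14, 25 and 26. The epididymal gene Crisp1 had 871 to 3077 reads in 5 libraries and 0 in wild-type replicate 3. Gpx5, also epididymal, reached at most 10 reads, in wild-type replicate 1. It had 0 in wild-type replicate 3 and in null replicates 2 and 3. The expression data held no values for Lcn5, a further epididymal marker. The part of the Crisp1 difference in the results below was not tested, and none of the 10 silent genes on the epididymis and rete list had a single-promoter peak.

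Silent genes carried a peak less often than expressed genes did. Of 6130 silent genes in the table of 22744, 166 (2.71%, 2.32 to 3.15%) had a single-promoter peak, against 2000 of 16614 expressed genes (12.04%, 11.5 to 12.5%). The share was 2.03% for genes with a wild-type mean of -7 to -5, 2.27% from -5 to -3, 2.57% from -3 to -1 and 3.47% from -1 to 0. It was 3.30% from 0 to 1, 4.62% from 1 to 3, 10.6% from 3 to 5, 16.6% from 5 to 7 and 20.2% above that. There was no step at 0, and the intervals of the bins on either side of it overlapped. The genes just inside the limit were S100z at -0.03, Gbp8 at -0.01 and the predicted gene Gm13845 at -0.01, and those just outside were Dll3 at 0.03, 6330418K02Rik at 0.03 and Hist1h3i at 0.05.

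**Figure D1:**
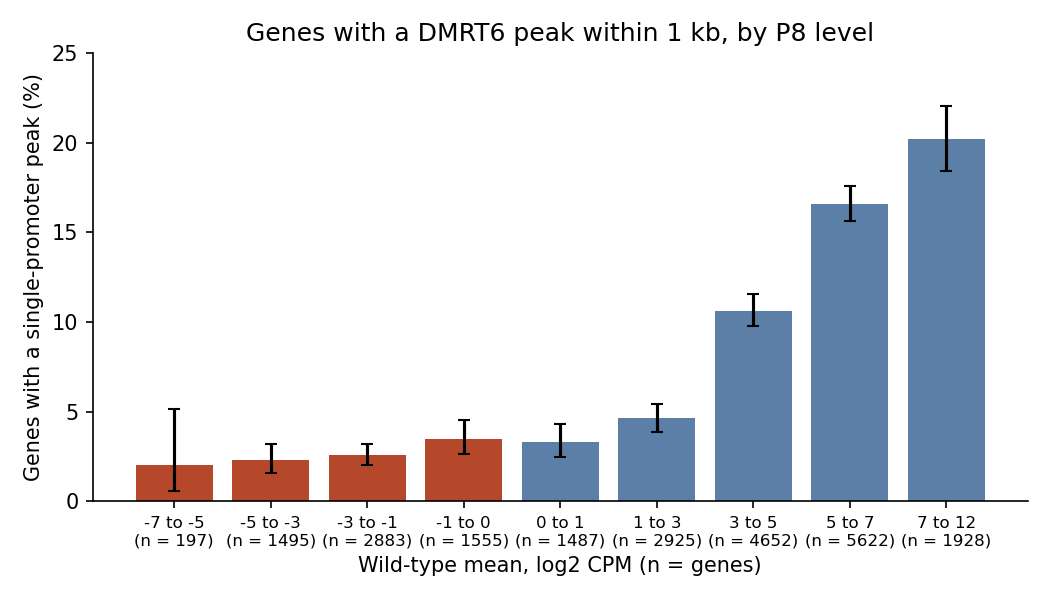
Percentage of genes with a single-promoter DMRT6 peak (vertical axis) in bins of the wild-type mean at P8 in log2 CPM (horizontal axis), red for silent and blue for expressed genes. Bars are shares and whiskers exact 95% binomial intervals. The share stayed between 2.03 and 3.47% in the 4 silent bins and reached 20.2% in the highest expressed bin.

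Only 1 ChIP library was made, so no peak could be checked in a replicate and no test was made between peaks. The peak score is the value that the authors' peak caller gave, and it serves here only to rank and describe peaks. The median score was 93.7 at silent promoters (quartiles 73.4 and 142), 85.5 at expressed ones (65.7 and 132) and 97.0 at the 12138 peaks more than 1 kb from any 5' end. A score of at least 100 was reached by 81 silent-promoter peaks (46.0%, 38.5 to 53.7%) and by 38.3% of expressed-promoter peaks (36.2 to 40.3%). The median width was 189 bp against 199 bp. The highest silent-promoter score, 745, had rank 160 among all 14862 peaks.

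The silent-promoter peaks were spread more widely around the 5' end. The median distance of the peak middle from the 5' end was 377 bp, against 158 bp at expressed genes. Only 36 of 176 (20.5%, 14.8 to 27.2%) lay within 100 bp, against 38.9% (36.8 to 40.9%) of expressed-promoter peaks, and 65 (36.9%) lay more than 500 bp away, against 19.0%. The bin from 200 bp upstream to the 5' end held 19.9% of the silent and 33.4% of the expressed set. Upstream peaks made up 54.0% of the silent and 56.3% of the expressed set. The spread was also seen in the 72 peaks at genes that RefSeq lists as protein coding, of which 14 lay within 100 bp and 31 beyond 500 bp.

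**Figure D2:**
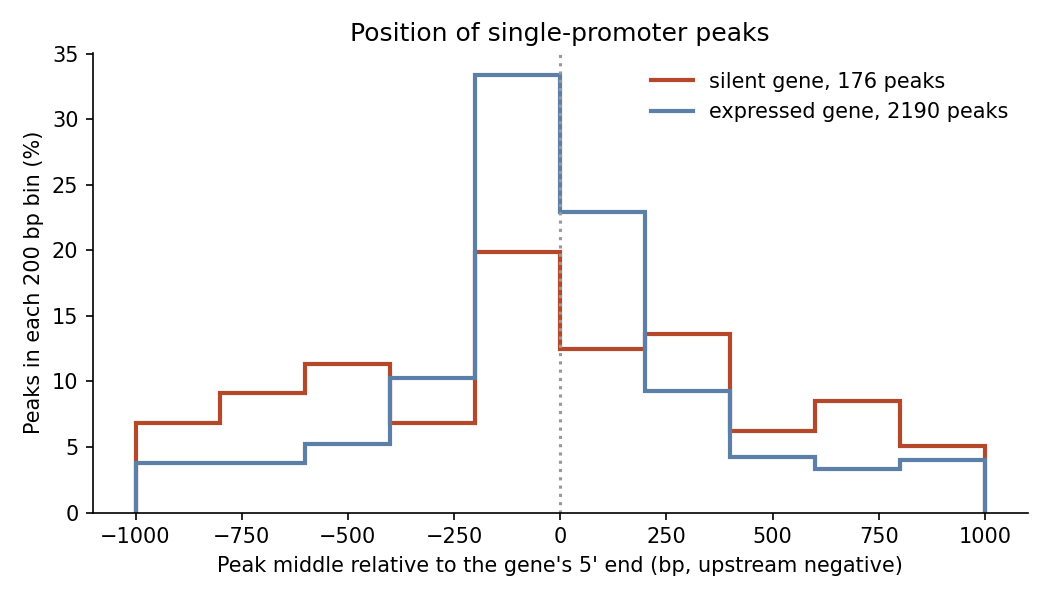
Percentage of single-promoter peaks in each 200 bp bin (vertical axis) by the distance of the peak middle from the gene's 5' end in bp, upstream negative (horizontal axis), for silent (red) and expressed (blue) genes. The blue line peaks at 33.4% just upstream of the 5' end, where the red line reaches 19.9%.

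Many of the silent 5' ends stood inside or beside active genes. The middles of 68 of 176 peaks (38.6%, 31.4 to 46.3%) lay in the body of an expressed gene, whereas 25.4% (24.3 to 26.5%) of the 5' ends of the 5930 silent genes with no peak within 1 kb did. An expressed gene started within 1 kb of 26 peaks (14.8%), against 9.58% of those 5' ends. Counting a body or a start within 5 kb gave 84 peaks (47.7%) against 34.5%. The peak file does not say which of 2 nearby genes a peak serves.

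The members fell into 3 settings. The 26 peaks with an expressed start within 1 kb had a median distance of 162 bp from the silent 5' end and a median score of 70.3. The rule keeps such a peak only where it lies nearer to the silent 5' end than to the expressed one, which limits that distance. The 58 other peaks in an expressed body or within 5 kb of an expressed start had medians of 368 bp and 92.4. The 92 peaks with neither (88 genes) had medians of 436 bp and 101.5, and 40 of them lay more than 500 bp from the 5' end. Of these 88 genes, 51 were protein coding, against 7 of 25 in the first setting and 12 of 53 in the second.

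The kinds of gene were mixed. RefSeq entries were matched for 121 of the 166 genes: 70 were protein coding (42.2%), 37 were long noncoding RNA genes (22.3%) and 6 were pseudogenes (3.61%). Silent genes with no peak were 48.7% protein coding, 12.9% long noncoding and 12.3% pseudogenes, and expressed genes with a single-promoter peak were 95.7% protein coding and 1.35% long noncoding. In all, 99 of the 166 had predicted or provisional symbols, whose 5' ends are less well defined than those of studied genes. A total of 71 of the 166 (42.8%) overlapped an expressed gene, against 30.9% of silent genes with no peak. Of the 166, 62 overlapped a gene on the opposite strand, a share not worked out for silent genes with no peak. The use of strand in the read counting is not given in the sources used here, so reads of such pairs cannot be told apart.

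**Figure D3:**
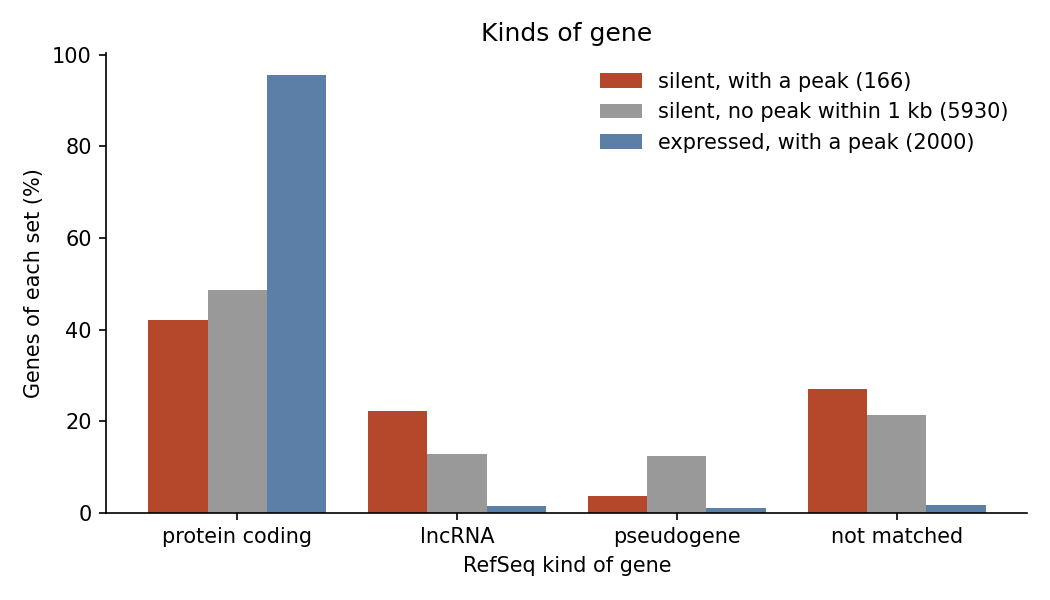
Percentage of genes (vertical axis) of each RefSeq kind (horizontal axis) among silent genes with a peak (red, 166), silent genes with no peak within 1 kb (grey, 5930) and expressed genes with a single-promoter peak (blue, 2000). Long noncoding RNA genes make up 22.3, 12.9 and 1.35% of the 3 sets.

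Replication-dependent histone genes stood out in number. They encode the histones made in S phase and lie in clusters, mainly on chromosome 13. Of the 31 such genes that were silent in the table, 9 (29.0%) had a single-promoter peak, beside 2.71% of all silent genes and 20.0% of the 30 expressed histone genes. These were 7 histone H4 genes, 1 of 7 silent H2A genes (Hist1h2ab) and 1 of 5 silent H3 genes (Hist2h3c1), with 0 of 5 for H2B and 0 of 3 for H1. The table holds 12 H4 genes, of which 11 were silent. The 3 silent H4 genes without any peak were Hist1h4j, Hist1h4f and Hist2h4, while Hist1h4h had its peak at a dropped pair. These messages lack the poly(A) tail of other messages, and whether the libraries were selected for poly(A) is not given in the sources used here, so absent transcripts and transcripts lost in preparation cannot be told apart.

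The promoters of 4 of the 7 are shown because they carry the TATA box, GC box and response element counted below, and because a pair of them is almost identical. Each stretch is the 250 bases before the RefSeq start on the GRCm38.p6 build, 5' to 3'. Capitals mark, on either strand, the DMRT core ACATTGT, the cyclic AMP response element TGACGTCA, the RFX motif GTTGCCA, the TATA box TATAAA, the GC box GGGCGG and the CCAAT box CCAAT. Neighbouring GC boxes can overlap. The MYB motif CAACGG and the NRF1 core GCGCATGC were also searched on both strands and are not marked, and the longer DMRT core TACATTGTA contains the shorter one.
Hist1h4k chr13:21750554-21750803 minus strand: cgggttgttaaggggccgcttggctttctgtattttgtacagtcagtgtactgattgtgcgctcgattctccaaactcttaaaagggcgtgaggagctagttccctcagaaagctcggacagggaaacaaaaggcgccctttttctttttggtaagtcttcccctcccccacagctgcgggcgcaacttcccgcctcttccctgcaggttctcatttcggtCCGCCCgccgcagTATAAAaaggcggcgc
Hist1h4a chr13:23761250-23761499 minus strand: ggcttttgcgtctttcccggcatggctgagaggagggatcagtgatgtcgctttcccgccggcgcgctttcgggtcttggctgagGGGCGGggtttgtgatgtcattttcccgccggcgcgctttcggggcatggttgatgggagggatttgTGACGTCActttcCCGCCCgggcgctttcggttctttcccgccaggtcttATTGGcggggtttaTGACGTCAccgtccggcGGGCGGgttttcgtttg
Hist1h4m chr13:21811496-21811745 plus strand: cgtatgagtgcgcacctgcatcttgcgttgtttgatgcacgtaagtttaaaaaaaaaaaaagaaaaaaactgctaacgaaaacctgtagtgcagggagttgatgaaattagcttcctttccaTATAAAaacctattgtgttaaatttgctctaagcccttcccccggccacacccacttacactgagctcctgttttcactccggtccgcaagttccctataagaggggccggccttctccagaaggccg
Hist1h4n chr13:21832198-21832447 minus strand: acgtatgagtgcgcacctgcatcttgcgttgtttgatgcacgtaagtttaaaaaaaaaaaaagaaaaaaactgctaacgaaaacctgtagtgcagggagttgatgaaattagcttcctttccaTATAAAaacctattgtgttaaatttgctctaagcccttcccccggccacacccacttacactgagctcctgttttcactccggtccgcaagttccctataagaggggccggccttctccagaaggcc

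All 7 H4 promoters were found in the RefSeq table. In the full window, which runs to 50 bases after the start, TATAAA was present in 5 of 7, beside 14.2% of 27025 promoters of the same length. Relative to the start it began at -16 in Hist1h4k and -32 in Hist1h4d, but at -128 in Hist1h4m and -127 in Hist1h4n, the almost identical pair. The Hist1h4a stretch printed above holds no TATAAA, so its match lay after the start. The count is therefore of letters at any position in the window, and whether they act as TATA boxes was not tested. GGGCGG was present in 4 of 7 beside 35.9%, CCAAT in 3 of 7 beside 37.9% and TGACGTCA in 1 of 7, Hist1h4a, beside 1.88%. ACATTGT was in none of the 7 windows, beside 2.98%, and neither was TACATTGTA (0.204%). GTTGCCA (4.46%), CAACGG (5.30%) and GCGCATGC (2.81%) were also in none of the 7. The windows end 50 bases after the RefSeq start, whereas the H4 peak middles lay 113 to 450 bp downstream of the mm9 5' end. The sequence at the peak middles was not read, so these counts do not show whether it holds any of the motifs. The windows of Hist1h4m and Hist1h4n share an unbroken run of 285 bases, so reads from these copies are hard to tell apart, and how the authors' mapping divided them is not given in the sources used here. Within these windows, the next longest run shared by any H4 pair was 13 bases. The gene bodies were not compared, so how well reads of the other copies can be told apart was not tested.

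The H4 peaks lay over the genes themselves. Their middles stood 113 to 450 bp downstream of the 5' end, and 6 of 7 lay inside the gene, whose length is 312 to 539 bp. The Hist1h4k peak (ENSMUSG00000064288, chr13:21842004-21842518, mm9) had a score of 170 and covered 100% of the gene. The Hist1h4b peak (ENSMUSG00000069266, chr13:23848924-23849260) scored highest, at 179, with 68.6% of the gene under it. Peaks over Hist1h4a, Hist1h4m, Hist1h4c and Hist1h4n scored 120, 110, 80.9 and 60.1 and covered 58.1, 90.8, 84.1 and 77.7% of their genes. The Hist1h4d peak, with a score of 76.1, was the exception, covering 5.6% of the gene near its 3' end.

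The H4 genes were low in every library. In Hist1h4n the wild-type libraries stood at -0.56, -1.03 and -1.16 log2 CPM and the null libraries at -1.36, -2.70 and -1.33, and the 3 null values lay below all wild-type values. Its difference was -0.88 (SE 0.51), with an unadjusted p of 0.123 and a Benjamini-Hochberg adjusted p of 0.790 in limma, so it did not pass. Hist1h4k had 14, 7 and 2 reads in wild type against 4, 12 and 9 in null, and the genotypes overlapped. Hist1h4d had 10, 4 and 3 reads against 4, 0 and 6. Over the 6 libraries the 7 genes had 14 to 66 reads each. Hist1h4i, the expressed H4 gene, was at 1.82, 1.94 and 1.73 in wild type.

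**Figure D4:**
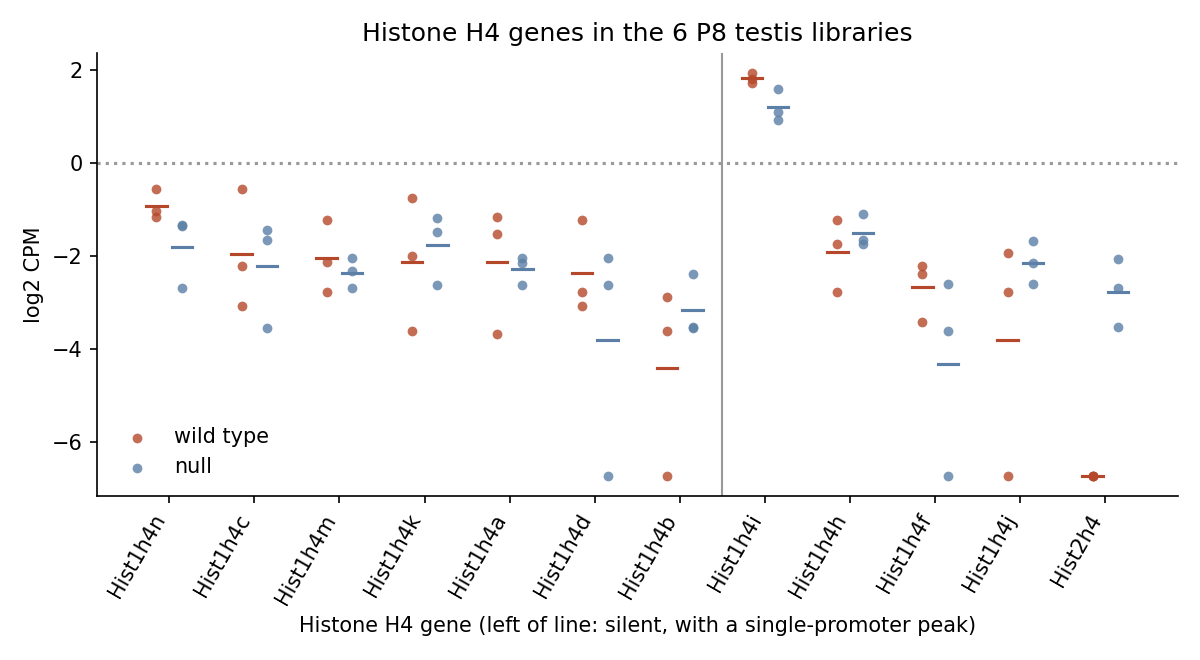
log2 CPM (vertical axis) of the 12 histone H4 genes (horizontal axis) in 3 wild-type (red) and 3 null (blue) P8 testis libraries. Points are libraries and bars group means, and the 7 silent genes with a single-promoter peak stand left of the line, all with means below 0. Points at -6.74 are libraries with 0 reads.

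On the lists of later germ cell stages, silent genes with a peak were few, as they were among all silent genes (2.71%). Of the 23 genes of late spermatocytes and spermatids that were silent at P8, 0 had a single-promoter peak, which allows a share of up to 13.0% (for a count of 0, here and below, 3 counts of the total). The axoneme and cilium list had 0 of 17, which allows 17.6%. The lists match fixed symbols and are not complete. Members outside them include Ccdc108, a gene of the sperm flagellum described below, and 1700101E01Rik, listed by RefSeq as Cfap77. The acrosome list had 1 of 15, Dkkl1, which encodes an acrosomal protein and had a peak of score 88.6 centred 678 bp inside the gene. Dkkl1 was at -0.24, 0.05 and -0.76 in wild type and -0.69, -0.07 and -0.85 in null. Meiotic prophase genes were almost all expressed, with 0 of 1 silent ones at a peak. Of the 50 expressed ones, 10 had a single-promoter peak (20.0%), beside 12.04% of all expressed genes, with level not matched. The spermatogonial and Sertoli lists each had 0 of 1 silent, and the Leydig list had no silent gene.

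Among 96 silent developmental transcription factor genes, 4 had a peak (4.17%, beside 2.71% of all silent genes). Pax1, a paired-box gene of the axial skeleton, had the highest score, 171, at 935 bp inside the gene. Zic1, a zinc finger gene of the neural tube and cerebellum, had a score of 150 at 798 bp upstream. Lhx4, a LIM homeobox gene of the pituitary and motor neurons, and Hoxa4 had peaks almost at the 5' end, 28 and 37 bp upstream, with scores of 114 and 60.7. Pax1 had 4, 4 and 4 reads in wild type against 2, 3 and 0 in null, and Zic1 had 21, 36 and 16 against 30, 31 and 19. Lhx4 had 14, 16 and 18 reads against 16, 17 and 30, and Hoxa4 had 4, 6 and 8 against 8, 16 and 4. The genotypes overlapped for Zic1, Lhx4 and Hoxa4. The 3 null values of Pax1 lay below its wild-type values, but its mean over the 6 libraries was under -3, so it did not enter the test.

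Other lists added little. Among 22 silent keratin and epidermal genes, 1 had a peak, Krt75, a hair follicle keratin, with a score of 108 at 443 bp upstream. There was no single-promoter peak at 50 silent neuronal and synaptic genes (up to 6.00%), 67 olfactory and vomeronasal receptor genes (up to 4.48%) or 58 interferon, chemokine and interleukin genes (up to 5.17%). The same held for 11 silent macrophage and leukocyte markers (up to 27.3%), 11 silent Zfp genes (up to 27.3%), 10 epididymis and rete genes (up to 30.0%) and 3 endothelial and red blood cell genes. Of the 357 expressed Zfp genes 16.2% had one, beside 12.04% of all expressed genes, with level not matched.

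Most of the highest scores were at genes without an established name. Of the top 12 peaks, 9 were at predicted or provisional symbols, 5 lay in the body of an expressed gene and 7 were more than 500 bp from the 5' end. In the whole set, 59.6% of the 166 genes had such symbols. Of all 176 peaks, 38.6% lay in an expressed body and 36.9% beyond 500 bp. The highest, with a score of 745, lay at the long noncoding RNA gene Gm11753 (ENSMUSG00000085548, chr11:119045298-119045681, mm9) inside the expressed gene Tbc1d16. It covered much of the mm9 interval of Gm11753, which is 564 bp long. RefSeq gives Gm11753 a length of 13487 bp, and the distance of the peak from the RefSeq start was not tested. Gm11753 had 2, 6 and 1 reads in wild type against 3, 3 and 2 in null. The peak near G430095P16Rik scored 492 inside Nfix, a transcription factor gene, and that of Gm26004 scored 399 inside Lbr, which encodes the lamin B receptor. Gm23849 at 349 lay inside Rdm1, 430 bp from its start, and Gm12737 at 272 lay inside Zcchc11. The peaks of 1700001P01Rik at 403 and Gm13094 at 393 lay 5780 and 7963 bp from the starts of Rpl23 and Eno1.

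The peaks of Gm10801 and Gm10800 on chromosome 2 scored 565 and 484 and stood apart from the rest. They were 821 and 1126 bp wide, against a median of 189 bp, the second being the widest of the set. The 2 peaks were separated by 3198 bp. How uniquely reads map to this locus was not tested, so the scores may not reflect binding. The nearest expressed start was 712939 bp from the first peak. Gm10800 had 6, 4 and 25 reads in wild type against 52, 23 and 3 in null, and the genotypes overlapped.

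At named genes, the highest scores belonged to Zxda, Tmem156 and Trim67. Zxda, a zinc finger gene on chromosome X that RefSeq lists as a transcribed pseudogene, had a score of 451 at 259 bp upstream (chrX:92043648-92043914) and 10, 13 and 5 reads in wild type against 12, 3 and 28 in null. Tmem156, a gene for a membrane protein, had a score of 356 at 860 bp upstream and 7, 2 and 0 reads against 3, 2 and 2. Trim67, a tripartite motif gene known from the brain, had a score of 279 at 865 bp upstream and 6, 12 and 14 reads against 13, 13 and 30. All 3 were low in both genotypes, and the genotypes overlapped in each.

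In all, 10 genes had 2 peaks each. By the symbols used here, the only one with an established name was Ctxn3, a cortexin gene, whose peaks scored 206 and 111 at 335 and 730 bp inside the gene. Its reads were 11, 17 and 30 in wild type and 8, 41 and 9 in null. Gm12260, a protein-coding gene that RefSeq lists as H3f4, had peaks scoring 137 and 57.7 at 42 and 381 bp inside the gene.

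The set also held 2 microRNA genes, chosen for description after their values were seen. The peak of Mirlet7i (chr10:122422624-122422955, mm9) had a score of 132 and spanned the hairpin, which lies at 122422696 to 122422780 on the minus strand. The peak of Mir5119 scored 67.4 at 668 bp upstream, inside the expressed gene Cdk12. Reads on the 2 loci were few, 1 to 3 per library for Mirlet7i and 3 to 14 for Mir5119, and the mature miRNAs were not measured here. Mature sequences from RefSeq are printed with the seed, bases 2 to 8, in capitals, and no seed is shared among them.
let-7i-5p: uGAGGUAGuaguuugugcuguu
let-7i-3p: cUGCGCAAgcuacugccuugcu
miR-5119: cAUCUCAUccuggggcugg
let-7i-5p carries the seed of the let-7 family, which restrains growth and stem cell programmes in many tissues.

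RefSeq promoters were found for 78 of the 166 genes (47.0%), below the 80% needed, so any comparison of base composition or motif share over all members is void. The stretches below were picked after their values were seen, because each gene has the same length in the mm9 and RefSeq models and its peak covers or nears the 5' end. AA543186 is a long noncoding RNA gene with a peak of score 177 centred 11 bp inside it and 222 bp from the start of the expressed gene Man1b1. 1700061J05Rik, listed by RefSeq as Tex33, a protein-coding gene, has a peak of score 73.5 centred 63 bp upstream, with no expressed start nearer than 9884 bp.
AA543186 chr2:25332572-25332821 minus strand: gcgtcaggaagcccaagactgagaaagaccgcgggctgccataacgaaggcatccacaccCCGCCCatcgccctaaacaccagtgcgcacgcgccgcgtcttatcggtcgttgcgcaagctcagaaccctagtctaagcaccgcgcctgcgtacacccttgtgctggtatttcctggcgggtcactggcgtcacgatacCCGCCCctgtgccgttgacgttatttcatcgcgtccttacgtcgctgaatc
1700061J05Rik chr15:78395913-78396162 minus strand: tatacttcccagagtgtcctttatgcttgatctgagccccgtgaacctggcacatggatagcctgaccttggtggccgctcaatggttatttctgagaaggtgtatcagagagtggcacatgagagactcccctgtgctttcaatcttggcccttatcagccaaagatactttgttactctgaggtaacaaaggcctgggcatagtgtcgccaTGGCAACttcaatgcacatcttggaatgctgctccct
The AA543186 stretch holds 2 GC boxes on the reverse strand. That of 1700061J05Rik holds an RFX motif on the reverse strand and no GC box. A match is a description of letters, and an mm9 peak cannot be placed on these GRCm38.p6 coordinates here.

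Few genes passed the test between null and wild type at P8, and no silent gene with a peak did. Expression in null against wild type was compared with limma across 20897 genes that had a mean of at least -3 over the 6 libraries, which 130 of the 166 members passed. With Benjamini-Hochberg adjustment, 3 genes of 20897 (0.0144%) passed 0.05, and 0 of the 130 members did. The 3 were Dmrtb1 itself at -3.78 (SE 0.36, adjusted p = 0.0353) and the predicted genes Gm5859 at 4.65 and Gm13300 at 5.25. At an unadjusted p under 0.05, 1.66% of all genes were higher and 1.82% lower in null, against 1 and 0 of the 130 members. That 1 was Gm14958, named after its value was seen, at 1.84 (SE 0.69, unadjusted p = 0.0282, adjusted p = 0.790 in limma). The null libraries lay wholly above the wild-type ones for 5.05% of all genes and 5 of 130 members, and wholly below for 5.76% and 3 of 130. The members' shares were close to or below those of all genes. The count of 3 was 0 without null replicate 1 or without null replicate 2, and 5 without wild-type replicate 3 or without null replicate 3, while the members' count stayed at 0 in each. Dmrtb1 passed with all 6 libraries but not without any one of the 3 wild-type replicates, nor without null replicate 1 or 2, nor with voom or with a filter at a mean of 0.

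The median difference of the 130 members was 0.08 on the log2 scale, with 77 higher in null, beside 0.01 for all genes tested. Without wild-type replicate 2 it was -0.028, with 64 higher. Because members were chosen for low wild-type values, which enter this difference, it is a description only. Fewer cells of a type and less RNA per cell cannot be told apart in whole testis.

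The silent genes were mostly silent in the null testis too. Of the 166, 158 (95.2%) had a null mean below 0, beside 94.5% of the 5930 silent genes with no peak, and 133 were below 0 in all 3 null libraries. Their median level was -1.71 in wild type and -1.68 in null. Reads were few, with a median of 51 over the 6 libraries together and a range of 11 to 399, and 35 genes had at least 1 library with 0 reads.

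The 8 genes with a null mean of 0 or more were led by Ccdc108 and Prph2, and the other 6 had provisional symbols. Ccdc108, later named Cfap65 and known as a gene of the sperm flagellum, had a peak of score 55.9 centred 12 bp upstream and log2 CPM of -1.22, -0.85 and 1.01 in wild type and -0.45, 2.95 and 1.74 in null, corresponding to 10, 16 and 55 against 19, 213 and 86 reads. The genotypes overlapped, and the difference of 1.77 (SE 0.88, unadjusted p = 0.0783, adjusted p = 0.790 in limma) did not pass. Prph2, which encodes a membrane protein of photoreceptor discs, had a peak of score 98.1 at 804 bp upstream. It was at -0.74, -0.39 and 0.48 in wild type and 0.75, 0.31 and 0.37 in null, with overlap. Its difference of 0.70 (SE 0.38, unadjusted p = 0.102 in limma) did not pass either.

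**Figure D5:**
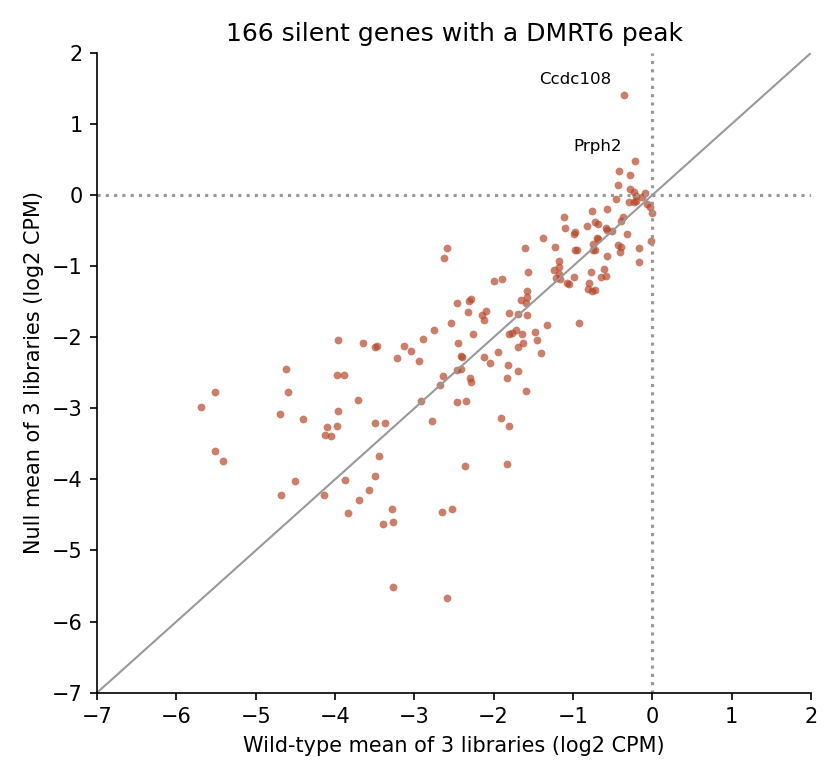
Null mean (vertical axis) against wild-type mean (horizontal axis), each over 3 P8 testis libraries in log2 CPM, for the 166 silent genes with a DMRT6 peak. Each point is a gene, the diagonal marks equal levels and dotted lines mark 0, and 158 points lie below the horizontal dotted line.

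Several genes known for tight control in other tissues were in the set, and they are named here after their values were seen. Egr3 and Npas4 are immediate early transcription factor genes, and their peaks lay far from the 5' end, 997 bp upstream and 814 bp inside the gene, with scores of 81.2 and 78.5. Arg1, which encodes the arginase of the urea cycle, had a peak of score 146 at 265 bp inside the gene and 20, 19 and 32 reads in wild type against 27, 17 and 30 in null. Dppa2, a gene of pluripotent cells and early germ cells, had a peak of score 78.9 at 253 bp inside the gene and 11, 21 and 16 reads against 18, 17 and 6. The peak assigned to Epo, the erythropoietin gene, had a score of 121 at 56 bp inside the table's gene interval, but 3 gene starts lay within 1 kb of it and the expressed gene Gnb2 started 324 bp away. The genotypes overlapped for Arg1 and Dppa2.

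By chromosome, silent genes with a single-promoter peak made up 14 of 239 silent genes on chromosome 13 (5.86%), which holds 8 of the 9 histone genes above, and 25 of 556 on chromosome 11 (4.50%). On chromosome X they were 4 of 390 (1.03%). The remaining autosomes ranged from 1.10% on chromosome 7 to 4.51% on chromosome 19.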

How the data were processed

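Expression values were log2 CPM, deposited by the authors in 1 table of 22744 genes. The submitters' processing notes name STAR 2.3.0e, Bowtie2, Picard, edgeR and mm9 with no roles, and the read counter is not given in the sources used here. The lowest value in every library was -6.74, and whole reads were recovered for 100% of values at a tolerance of 0.01 reads. The peak score was deposited by the authors with 14862 peaks of 1 ChIP library, and its scale is not stated. How deeply ChIP and input were sequenced is unknown.

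Gene 5' ends are the outer ends of the table's mm9 intervals. Genotypes were compared with limma 3.58.1 (R 4.3.3), limma-trend with genotype as the only term, a filter at a mean of -3 and Benjamini-Hochberg adjustment at 0.05. The script was tested on simulated data. Alternatives were other limits for silence, windows and overlap rules, libraries left out in turn, a replicate block, other scalings, voom and array weights. Genes were named by rule: the 12 highest scores, 3 genes on each side of the limit, up to 4 members of each list, the 3 smallest p in each direction, genes with 2 peaks and genes with a null mean of 0 or more. Predicted symbols were named only among the highest scores unless stated. The members and lists were chosen with earlier results of these data known.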

Additional observations from a re-analysis of the deposited data

How the results depend on the processing

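The number of silent-promoter peaks, 176, fell to 116 and 74 with the limit for silence at -1 and -2, to 115 within 500 bp and to 81 at a score of at least 100, and rose to 274 within 2 kb. Their share of single-promoter peaks, 7.44%, was 4.90% and 3.13% with limits of -1 and -2, 9.59% with a limit of 1, 6.21% with every wild-type library under 0, 5.93% within 500 bp, 9.44% within 2 kb and 8.81% at a score of at least 100. The median score of 93.7 was 160 among peaks of at least 100, and the median distance of 377 bp was 199 bp within 500 bp and 728 bp within 2 kb. The shifts in number, median score and median distance follow from the narrower or wider sets. The share also depends on the expressed-promoter peaks, and why it moved at other windows and scores was not tested. With a limit of -2, 71 genes were also below 0 in null, against 158. The 3 genes past the limma threshold became 1 with a filter at a mean of 0 and 16 with array weights, whose estimate did not converge, and 0 to 5 with 1 library left out. The members' median difference was 0.70 over the 3 genes left by the filter at 0, which keeps a member only where its null values are high and so fixes that sign, and -0.028 to 0.10 with 1 library left out. No member passed the threshold under any of the 13 alternatives to the test. Replicate numbers did not pair the libraries: same-numbered libraries had correlations of -0.04, -0.10 and 0.04, and with the replicate block 3 genes passed, 0 of them members, and the median stayed at 0.08.

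Few reads per gene, 1 ChIP library, adult binding set against P8 RNA, and 5' ends of predicted genes limit these comparisons.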
